A study of Mus musculus with 6 samples.

Results

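The cytosolic ribosomal protein genes and their muscle and other paralogs were described in heart muscle cells of mice given α-ketoglutarate. Members were chosen by symbol alone. A gene was taken when its symbol began with Rpl or Rps followed by a digit, or was Rplp0, Rplp1, Rplp2 or Rpsa, with the S6 kinase genes and the rows marked as pseudogenes left out. This gave 87 genes of the 22033 that carried a symbol. They comprised 77 core genes (31 of the small subunit, 43 of the large subunit and 3 of the stalk) and 7 listed paralogs of core genes. The other 3 genes fit the name pattern but were in neither class (Rps19bp1, Rps23rg1 and Rps27rt, the last a retrogene of Rps27).

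RNA was sequenced from cardiomyocytes of WT (wild-type) mice. One group received α-ketoglutarate (AKG below), a metabolite of the citric acid cycle, at a dose of 300 mg per kg per day. The Control group received PBS, phosphate-buffered saline. Injections were daily for 2 weeks, and the labels name postnatal day 21 (P21) both for the injected mice and for the hearts, so how old the mice were when injections began and ended was not resolved. Cells were taken from hearts by the Langendorff method, in which the heart is perfused through its coronary vessels, RNA was extracted with Trizol, and libraries were made from mRNA. Each group held 3 libraries. The labels do not say whether a library is 1 mouse or a pool, so all p-values measure only the spread between these libraries, which may be technical.

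The cytosolic ribosome is built from ribosomal RNA and a fixed set of proteins of a small and a large subunit, most of them needed in equal number. Their mRNAs typically begin with a C followed by a run of pyrimidines, the TOP motif, through which the mTORC1 pathway and the LARP1 protein control their translation together. A few proteins have paralogs with restricted expression. Rpl3l is the paralog of Rpl3 in heart and skeletal muscle, and is known to replace Rpl3 in part of the ribosomes of mature muscle.

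The start of the gene was read from RefSeq (mouse build GRCm38.p6), which held 67 of the 87 members. Some genes had more than 1 annotated start (79 for the 67 members, 13229 for 10301 tested genes). For each gene the start with the longest pyrimidine run was used. A run of at least 8 C or T letters lying on the start, or ending or beginning within 5 bases of it, was found in 25 of the 67 (37.3%). It was found in 12.3% of the tested genes with an entry and in 7 of 69 mitochondrial ribosomal protein genes (10.1%). Printed below are 30 bases, 15 before the start and 15 from it, with capitals on the pyrimidine run at the start. Rps6 (small subunit, the target of S6 kinase), Rpl15 (large subunit) and Rplp2 (stalk) are shown because their runs lie on the start and are long. Rpl3l, Rpl36al and Rpl7l1 are shown because these 3 paralogs fell and lack a run of that length, and Rps27l and Rpl22l1 complete the tested paralogs.
Rps6, chr4:86857353-86857382, strand -: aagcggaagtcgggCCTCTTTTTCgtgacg
Rpl15, chr14:18270972-18271001, strand -: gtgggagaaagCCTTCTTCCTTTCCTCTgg
Rplp2, chr7:141447636-141447665, strand +: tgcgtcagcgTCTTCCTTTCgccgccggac
Rpl3l, chr17:24727811-24727840, strand +: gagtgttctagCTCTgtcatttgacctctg
Rpl36al, chr12:69184053-69184082, strand -: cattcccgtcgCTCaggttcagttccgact
Rpl7l1, chr17:46782642-46782671, strand -: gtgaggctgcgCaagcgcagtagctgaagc
Rps27l, chr9:66946071-66946100, strand +: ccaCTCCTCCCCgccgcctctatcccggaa
Rpl22l1, chr3:28805493-28805522, strand +: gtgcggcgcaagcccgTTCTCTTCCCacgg
The run was 10 letters long in Rps6, 17 in Rpl15 and 10 in Rplp2. It was 4 letters in Rpl3l, 3 in Rpl36al and 1 in Rpl7l1, while Rps27l had 9 and Rpl22l1 had 10. Annotated starts can differ from those used in this tissue, so a missing run says only that the letters are not at this position. The 22 core genes with a run had a median log2 fold change of -0.083 and the 35 without had -0.052. By the edgeR test described below, 1 of those with a run rose and 2 fell, and of those without 3 rose and 4 fell. Over all tested genes 25% rose and 25.2% fell by that test. The difference between core genes with and without a run was not tested. The letters CCGGAAG, searched on both strands of the 300 bases from 250 before to 50 after the start, were in 38.8% of the members, 37.7% of the mitochondrial ribosomal protein genes, 19.6% of the tested genes and 9.93% of all genes in the promoter table. The letters TATAAA, searched the same way, were in 10.4% of the members and 8.80% of the tested genes. In both searches a gene counted when any of its annotated starts had the letters.

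Sequencing gave 14402876 to 17797368 estimated counts per library. The mitochondrially encoded genes took 38.3 to 43.1% of the counts in the Control libraries and 25.7 to 31.4% in the AKG libraries. The defining markers of cardiomyocytes were abundant in all libraries, and their summed level over 7 genes was 55900 to 60600 CPM (counts scaled to a common library size by TMM, a trimmed mean of the gene-wise ratios) in Control and 25500 to 28300 CPM in AKG, with 6 of the 7 lower. Summed markers overlapped between the groups for endothelial cells (2190 to 2420 and 2000 to 2520 CPM), fibroblasts (1550 to 1920 and 1270 to 1600 CPM) and red blood cells (1010 to 1430 and 1090 to 1550 CPM). Single markers did differ in the test described below. Of 7 endothelial markers 2 were higher and 2 lower, and of 7 fibroblast markers 1 was higher and 4 were lower. Summed markers were lower in AKG for pericytes and smooth muscle (1800 to 1960 against 791 to 983 CPM) and macrophages (116 to 179 against 75.2 to 89.5 CPM), and higher for neutrophils (0.736 to 1.5 against 5.23 to 12.0 CPM). The 5 atrial markers summed to 359 CPM in AKG 1 and 220.4 CPM in AKG 3, but to 7.58 CPM in AKG 2 and 6.40 to 12.0 CPM in Control. No marker was at 0 in all libraries. The part of these shifts in the results on ribosomal proteins was not tested, and in bulk RNA fewer cells of a type and less RNA per cell cannot be told apart.

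Most core ribosomal protein genes did not pass the test in either direction, and 4 of the 5 tested paralogs fell. In edgeR's quasi-likelihood test, adjusted by Benjamini-Hochberg over 13117 genes and called at 0.05, 5 of the 84 tested members were higher in AKG and 15 were lower. Across all tested genes 25% were higher and 25.2% were lower, 50.2% in all. The 5 that rose were Rpl3, Rpl4, Rpl5, Rps4x and Rplp0, all core genes, by 0.24 to 0.35 on the log2 scale. Of the 15 that fell, 11 were core genes, with log2 fold changes of -0.58 to -0.22, and 4 were paralogs. The AKG libraries were all above the Control libraries in 7 members and all below in 20, while the groups overlapped in 57. Over all tested genes those shares were 29.4% above and 29.9% below, 59.2% in all.

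The median log2 fold change of the 84 members was -0.072, with quartiles of -0.18 and 0.05. The median of all tested genes was 0.0029, with quartiles of -0.37 and 0.34. Of the 77 core genes, 64 (83.1%) had a log2 fold change between -0.25 and 0.25, against 37.7% of all tested genes. Core genes were abundant, with mean FPKM (fragments scaled by transcript length and library size) from 28.0 for Rps20 to 666 for Rps2 and a median of 264. By subunit, 1 of 31 small-subunit genes rose and 5 fell, with a median of -0.031. In the large subunit 3 of 43 rose and 4 fell, with a median of -0.075. Of the 3 stalk genes 1 rose and 2 fell.

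**Figure D1:**
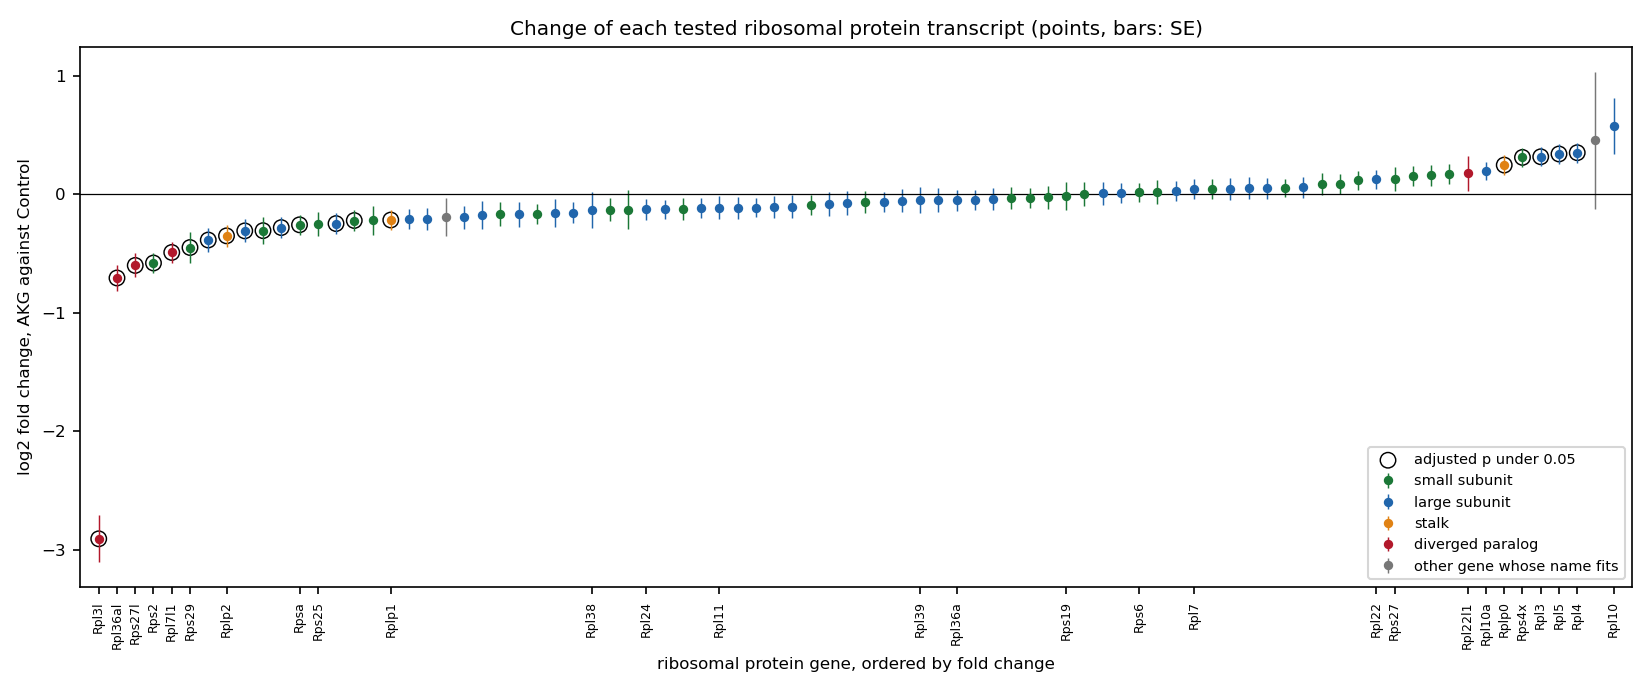
Log2 fold change, AKG against Control, of each of the 84 tested members, ordered by value, with names under some of them. Points are coloured by class, bars are the SE, and rings mark an adjusted p under 0.05 in edgeR's quasi-likelihood test. Core genes lie mostly between -0.25 and 0.25, and Rpl3l stands lowest at -2.91. With total counts as the scaling all values shift upward and 9 of the 20 called members change sign.

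The direction of these small changes depends on how libraries were scaled. Members held 1.46, 1.46 and 1.37% of all counts in Control 1, 2 and 3, and 1.96, 1.90 and 1.76% in AKG 1, 2 and 3. These shares did not overlap between the groups. Once the mitochondrially encoded genes were left out of the total, the shares were 2.57, 2.36 and 2.32% in Control and 2.81, 2.77 and 2.37% in AKG, and the groups overlapped. With total counts as the scaling the median of all tested genes moved to 0.45 and that of the core genes to 0.38. The core genes were then 0.069 below the median of all genes, against 0.070 below it with TMM. On that scaling 65 members were higher and 2 lower (77.4% and 2.38%), with 56.7% and 9.12% of all tested genes.

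Core genes also shifted together from library to library. The summed CPM of the 77 core genes was 17328, 15901 and 16134 in Control 1, 2 and 3, and 16798, 16913 and 14324 in AKG 1, 2 and 3. AKG 3 was the lowest library for 64 of the 77 genes, and Control 1 was the highest for 48. Without AKG 3, 12 members were higher, and without Control 1, 7 were lower. Leaving out each library in turn gave 2750 to 3296 of all tested genes higher and 2846 to 3243 lower. AKG 2, the AKG library whose atrial markers were at Control level, was also taken as the lone treated library. Its spread was then assumed to be that of the Controls. The fold change was then above 0 in 49 members and below 0 in 35, against 30 and 54 with all libraries. With all libraries it was above 0 in 6583 of all tested genes and below 0 in 6534. That split is not given here for AKG 2 alone, so whether the swing is particular to the members was not tested.

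Among the rises, Rpl4 and Rpl5 had the largest values. Rpl4, a large-subunit protein with an extension lining the exit tunnel, was at 416, 429 and 435 CPM in Control and 564, 569 and 497 CPM in AKG. Every AKG library was above every Control library. Its log2 fold change was 0.35 (SE 0.083; edgeR adjusted p = 0.00328). Rpl5, which binds 5S ribosomal RNA together with Rpl11 and, free of the ribosome, binds the p53 regulator Mdm2, was at 256, 245 and 242 CPM in Control and 333, 322 and 284 CPM in AKG. The groups did not overlap, and the log2 fold change was 0.34 (SE 0.082; edgeR adjusted p = 0.00372). Its partner Rpl11 did not pass the test, at 203, 192 and 188 CPM in Control and 200.3, 185 and 152 CPM in AKG (log2 fold change -0.12, SE 0.10; edgeR adjusted p = 0.332). The 2 groups overlapped for Rpl11. That value is 0.32 (adjusted p = 0.00818) with total counts as the scaling.

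Rps4x, the X-linked small-subunit protein, was at 274, 270.1 and 268 CPM in Control and 346, 350.4 and 309 CPM in AKG, with no overlap. Its log2 fold change was 0.31 (SE 0.079; edgeR adjusted p = 0.00519). The stalk is the flexible part of the large subunit that recruits elongation factors, with Rplp0 as its base and Rplp1 and Rplp2 as its arms. Rplp0 rose from 622, 583 and 597 CPM to 719, 742 and 673 CPM, by 0.24 (SE 0.081; edgeR adjusted p = 0.0226). The adjusted p of Rplp0 was 0.104 without Control 2, 0.0716 without Control 3 and 0.0557 without AKG 2. The arms were lower by the same test. Rplp2 was at 119, 102 and 105 CPM in Control and 86.3, 94.9 and 74.4 CPM in AKG (-0.35, SE 0.095; edgeR adjusted p = 0.00729), and its sign turned to 0.088 with total counts as the scaling. Rplp1 was at 212, 196 and 205 CPM in Control and 183, 188 and 156 CPM in AKG (-0.22, SE 0.085; edgeR adjusted p = 0.0458), and turned to 0.22 with that scaling. For all 3 stalk genes the groups were apart, Rplp0 upward and the arms downward. Leaving out a Control library or AKG 3 also ended the call of Rplp1, with an adjusted p of 0.0695 to 0.151, and for Rplp2 the adjusted p was 0.116 with AKG 2 as the lone treated library.

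Among the core genes that fell, Rps2 had the lowest fold change. Rps2, a small-subunit protein near the mRNA entry site and the core gene with the highest mean FPKM, was at 799, 782 and 864 CPM in Control and 560.0, 557 and 515 CPM in AKG. All AKG libraries lay below all Controls, by -0.58 (SE 0.083; edgeR adjusted p = 6.87e-05). Scaled by total counts it was at -0.14 (adjusted p = 0.167). Rps29, a small zinc-binding protein of the small subunit, was at 65.7, 54.5 and 53.7 CPM in Control and 42.1, 50.4 and 34.7 CPM in AKG (-0.45, SE 0.13; edgeR adjusted p = 0.0166). Its groups did not overlap either. The call of Rps29 was lost with total counts (-0.012, adjusted p = 0.932), without Control 1 (0.0627), without AKG 1 (0.055) and with AKG 2 as the lone treated library (0.178). Rpsa, a small-subunit protein also known as the laminin receptor, was at 559, 539.8 and 558 CPM in Control and 484, 476 and 424 CPM in AKG (-0.26, SE 0.082; edgeR adjusted p = 0.0178), but 0.18 with total counts. Rpl23a, a protein at the exit of the tunnel, was at 335, 306 and 302 CPM in Control and 275, 272 and 229 CPM in AKG (-0.28, SE 0.089; edgeR adjusted p = 0.0174), but 0.16 with total counts. Leaving out Control 1 gave an adjusted p of 0.0652 for Rpsa and 0.0889 for Rpl23a, and without Control 3 Rpsa was at 0.0564. With AKG 2 as the lone treated library they were at 0.0844 and 0.0911. Further core genes that fell were Rpl36, Rpl27, Rpl35 and Rps13, named after their values were seen.

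Of the 13 core genes named for their roles, 5 passed the test, Rpl5, Rplp0, Rplp1, Rplp2 and Rpsa, as described above, and the others did not. Rps6 was at 337, 313 and 308 CPM in Control and 336, 329 and 302 CPM in AKG, and the groups overlapped (0.014, SE 0.080; edgeR adjusted p = 0.896). Rps19, a small-subunit protein mutated in Diamond-Blackfan anaemia, gave -0.020 (SE 0.12; edgeR adjusted p = 0.901). Rps25, needed for some internal ribosome entry, gave -0.25 (SE 0.10; edgeR adjusted p = 0.0556). The values were -0.13 (SE 0.15) for Rpl38, known for its role in translating Hox mRNAs, and -0.13 (SE 0.089) for Rpl24, which forms a bridge between the subunits. Their edgeR adjusted p were 0.498 and 0.245. Rpl10a gave 0.19 (SE 0.076; edgeR adjusted p = 0.0508), with all AKG libraries above Control, and with an adjusted p of 0.0153 without AKG 3. Without AKG 1 or AKG 2 the adjusted p of Rps25 was 0.0491 or 0.0253. With total counts Rps25, Rps19, Rpl38 and Rpl24 were at 0.19, 0.42, 0.31 and 0.31, and Rps19 and Rpl24 were then called higher. On that scaling Rps6 (0.46), Rpl10a (0.63), Rps24 (0.60) and Rps14 (0.59) were called higher too. Among the members with the highest mean FPKM, Rps2 and Rpl23a fell as above, while Rps24 (0.16, SE 0.089) and Rps14 (0.15, SE 0.088) did not pass. The edgeR adjusted p of these genes were 0.157 and 0.165, and 0.0112 and 0.0131 without AKG 3. These misses do not show that the levels were equal.

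The muscle paralog Rpl3l fell while Rpl3 rose. Rpl3l was at 56.1, 54.4 and 83.3 CPM in Control 1, 2 and 3, and at 8.66, 9.82 and 7.32 CPM in AKG 1, 2 and 3. Every AKG library was below every Control library. The log2 fold change was -2.91 (SE 0.20; edgeR adjusted p = 7.99e-06), a 7.51-fold lower level, and 41 of the 13117 tested genes had a lower fold change. The library counts behind it were 825, 875 and 1131 in Control and 154, 158 and 132 in AKG. Rpl3, the protein next to the peptidyl transferase centre for which Rpl3l stands in, was at 274, 268 and 237 CPM in Control and 334, 323 and 313 CPM in AKG. No library of either group crossed into the other, and the log2 fold change was 0.31 (SE 0.082; edgeR adjusted p = 0.00562).

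On a scale per transcript length, Rpl3l made up 17.6, 16.9 and 26.1% of the FPKM of the pair in Control 1, 2 and 3. It made up 2.67, 3.01 and 2.46% in AKG 1, 2 and 3. The share was 20.2% ± 5.12 (SD, n = 3) in Control and 2.71% ± 0.278 (SD, n = 3) in AKG. The log2 ratio of Rpl3l to Rpl3 counts, which does not depend on library scaling, differed by -3.21 (AKG minus Control), a 9.24-fold change. An exact two-sided permutation test over the libraries gave p = 0.1, the smallest that 3 against 3 allows, and 0.125 after Benjamini-Hochberg adjustment over the 5 pairs tested. The summed CPM of the pair was 330.4, 322.2 and 320.4 in Control and 342.2, 332.7 and 320.2 in AKG, and these overlapped. The summed FPKM, which is not TMM-scaled, was 206.5, 218.2 and 201.3 in Control and 297.4, 278.6 and 291.6 in AKG, with no overlap. The sum thus depends on the scaling. The transcripts of the pair are 75.3% identical over 1200 aligned columns, with 22 bases as the longest identical stretch.

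Both changes held in all 20 alternative settings. Rpl3l lay between -3.02 and -2.26, with an adjusted p of at most 0.0433, and Rpl3 between 0.25 and 0.76, with an adjusted p of at most 0.0412. With AKG 2 as the lone treated library Rpl3l was at -2.71. The cardiomyocyte markers that moved with Rpl3l had fold changes nearer to 0, a difference that was not tested. The lowest fold change among them was that of the sarcomeric actin gene Actc1, from 11995 ± 612 to 2996 ± 409.6 CPM (log2 fold change -2.0, SE 0.12). The ryanodine receptor gene Ryr2 went from 1241 ± 54.0 to 732 ± 137 CPM (log2 fold change -0.76, SE 0.12), and the phospholamban gene Pln stood at 3238 ± 73.5 to 3216 ± 106 CPM (log2 fold change -0.0096, SE 0.091, not past the test). The part of a shift in the cells sampled in the fall of Rpl3l was not tested.

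**Figure D2:**
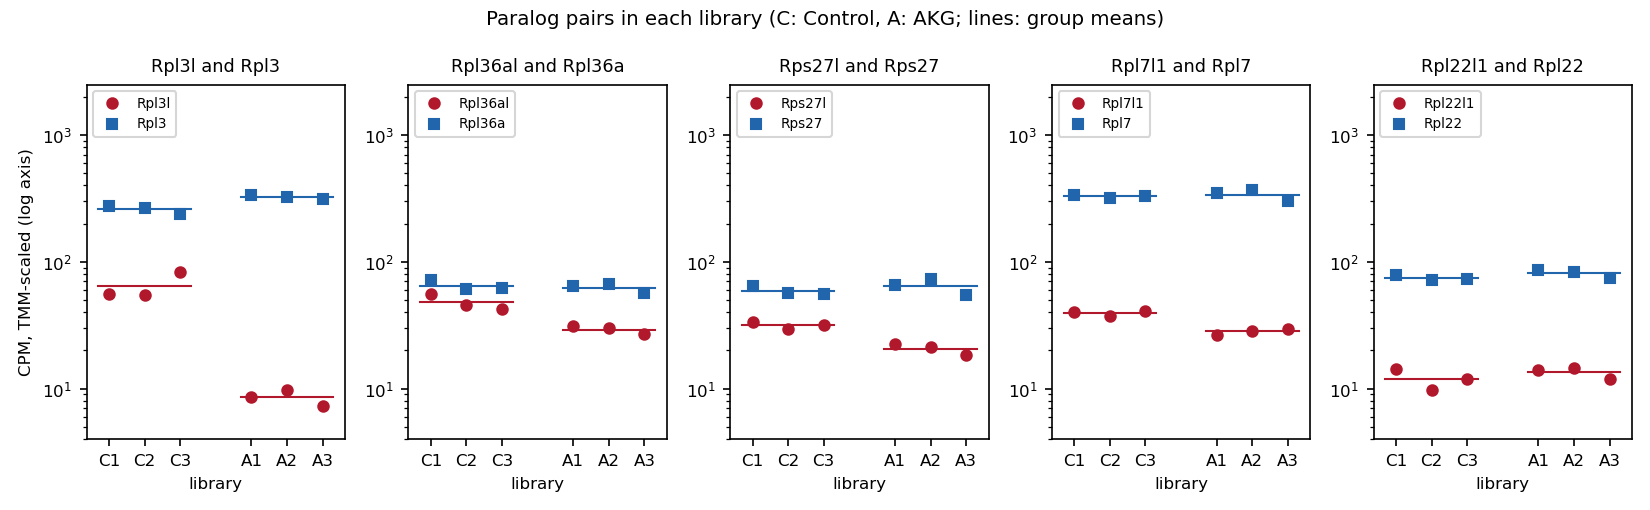
Level (CPM, TMM-scaled, log axis) of each tested paralog and its partner core gene in every library, Control and AKG. Rpl3l falls from 54.4 to 83.3 CPM in Control to 7.32 to 9.82 CPM in AKG while Rpl3 goes from 237 to 274 CPM in Control to 313 to 334 CPM in AKG. Lines are group means.

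Of the other 4 tested paralogs, 3 fell and none rose, while their partners did not pass the test. Scaled by total counts, the partners Rpl36a (0.39), Rps27 (0.57), Rpl7 (0.48) and Rpl22 (0.57) were called higher. Rpl36al, whose protein differs from that of the X-linked Rpl36a at very few positions, was at 55.7, 45.3 and 42.3 CPM in Control and 31.0, 29.8 and 26.9 CPM in AKG. Its groups were apart, at -0.71 (SE 0.11; edgeR adjusted p = 0.000113), and the call held in all 20 alternative settings, at -0.79 to -0.26. With total counts it was at -0.26 (adjusted p = 0.0459). Rpl36a was at 71.5, 61.2 and 61.6 CPM in Control and 64.3, 67.0 and 56.4 CPM in AKG, and overlapped (-0.051, SE 0.089; edgeR adjusted p = 0.658). The share of Rpl36al in the FPKM of the pair went from 40.2% to 30.0%, and the log2 count ratio differed by -0.65.

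Rps27l, a paralog of Rps27 known as a target of p53, was at 33.6, 29.3 and 31.6 CPM in Control and 22.5, 21.2 and 18.4 CPM in AKG. It was lower in every AKG library (-0.60, SE 0.10; edgeR adjusted p = 0.000264), but at -0.16 (adjusted p = 0.195) when scaled by total counts. Rps27 was at 64.7, 56.6 and 56.1 CPM in Control and 66.1, 73.1 and 54.9 CPM in AKG and overlapped (0.13, SE 0.10; edgeR adjusted p = 0.315). Without AKG 3 the adjusted p of Rps27 was 0.0263. The share of Rps27l in the FPKM of the pair went from 26.9% to 18.3%, with a log2 count ratio difference of -0.73. The name match Rps27rt, a retrogene of Rps27 with 20 to 108 counts per library, gave 0.45 (SE 0.58), and its counts are uncertain because reads may be split with Rps27.

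Rpl7l1, a relative of Rpl7, was at 40.5, 37.5 and 41.2 CPM in Control and 26.6, 28.6 and 29.4 CPM in AKG. All AKG libraries were below Control (-0.49, SE 0.086; edgeR adjusted p = 0.000338), but the value was -0.047 with total counts as the scaling and 0.023 in the test on log2(FPKM + 1). Rpl7 was at 338, 321 and 329 CPM in Control and 348, 367 and 302 CPM in AKG and overlapped (0.042, SE 0.087; edgeR adjusted p = 0.708). The share of Rpl7l1 in the FPKM of the pair went from 5.04% to 3.7%, and the log2 count ratio differed by -0.53.

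Rpl22l1 was the 1 tested paralog that did not pass with TMM, and it was higher when scaled by total counts (0.62, adjusted p = 0.00107). Rpl22l1, the paralog of Rpl22, was at 14.2, 9.69 and 11.9 CPM in Control and 13.9, 14.5 and 11.9 CPM in AKG, with overlap (0.18, SE 0.15; edgeR adjusted p = 0.338). Rpl22 was at 79.0, 71.7 and 72.5 CPM in Control and 85.6, 83.1 and 74.4 CPM in AKG (0.12, SE 0.078; edgeR adjusted p = 0.207), and passed without AKG 3 (adjusted p = 0.0449). The log2 count ratio differed by 0.065, with an exact two-sided permutation p of 0.9. In the other 4 pairs the ratio was lower in every AKG library than in every Control library, with exact p = 0.1 in each and 0.125 after adjustment over 5 pairs.

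The paralogs known mainly from testis were near or at 0. Rpl39l had 0, 0 and 3 counts in Control and 4, 0 and 2 in AKG, beside 445 to 579 counts of Rpl39 per library. Rpl39 itself was at 37.4, 29.8 and 32.8 CPM in Control and 31.7, 36.0 and 28.7 CPM in AKG and overlapped (-0.053, SE 0.11; edgeR adjusted p = 0.709), and was called higher with total counts (0.39). Rpl10l had no count in any library, which allows up to 3 counts in each, by counting error only. These genes and Rps23rg1 did not pass the filter on low counts. Identical stretches between the transcripts of a pair were at most 38 bases long, in Rpl39l and Rpl39, and reads shorter than such a stretch cannot be assigned.

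**Figure D3:**
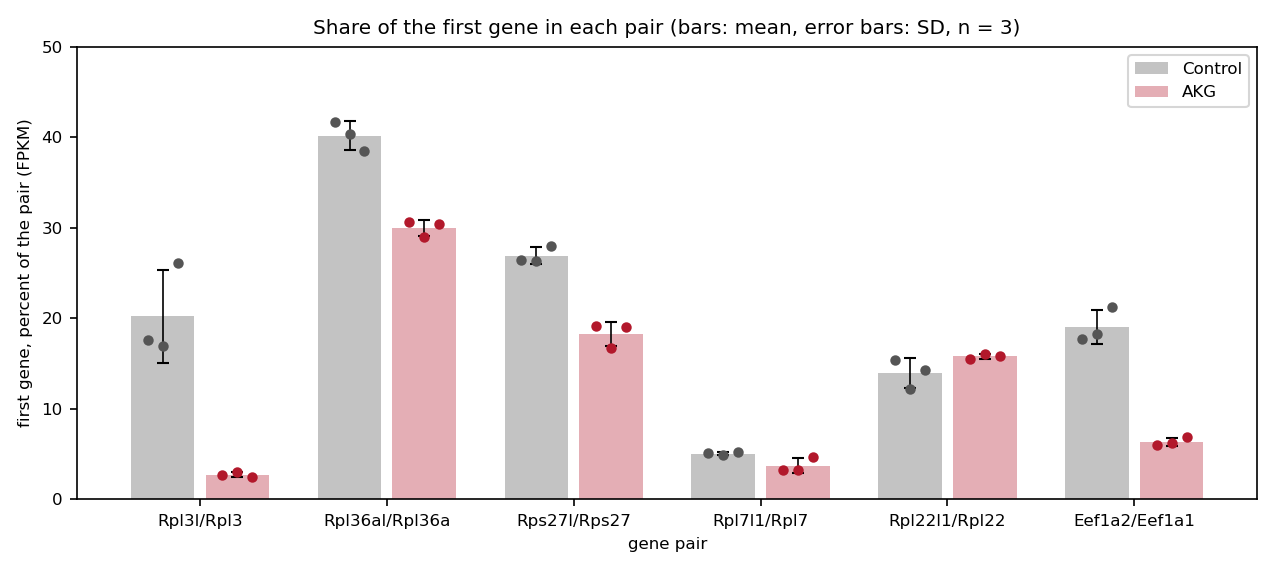
Share of the first gene in the summed FPKM of each pair (percent, axis from 0), with the elongation factor pair Eef1a2 and Eef1a1 added. Points are libraries, bars are means and error bars the SD (n = 3). The AKG libraries sit below all Controls in 4 of the 5 ribosomal pairs, from 16.9 to 26.1% down to 2.46 to 3.01% for Rpl3l, and not in Rpl22l1.

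Translation elongation factor 1A, the carrier of aminoacyl-tRNA, also has a muscle form, Eef1a2, beside the widespread Eef1a1. Eef1a2 fell from 485 ± 39.8 to 272 ± 10.6 CPM (log2 fold change -0.83, SE 0.085) and Eef1a1 rose from 1769.9 ± 95.5 to 3448 ± 137 CPM (log2 fold change 0.96, SE 0.093). On the FPKM scale Eef1a2 was 17.7, 18.3 and 21.2% of the pair in Control and 6.01, 6.19 and 6.83% in AKG, with no overlap. Of the 39 translation factors listed, 13 rose and 10 fell, with a median log2 fold change of 0.097, beside 25% and 25.2% of all tested genes. With total counts as the scaling 30 rose and 1 fell, with a median of 0.54. Of all tested genes 56.7% rose and 9.12% fell on that scaling, with a median of 0.45. Among these factors, Eif4b, a helper of the initiation helicase, rose from 130.0 ± 8.04 to 262 ± 6.98 CPM, and the poly(A)-binding protein gene Pabpc1 rose from 207 ± 7.25 to 354 ± 4.11 CPM.

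Of 25 other genes known for TOP mRNAs, 19 were in the table, and 11 rose and 3 fell, with a median of 0.26, beside 25% and 25.2% of all tested genes. With total counts as the scaling 16 rose and 0 fell, with a median of 0.70, where 56.7% of all tested genes rose. The list shares 10 genes with the translation factors, 7 of them among its rises, and 1, Npm1, with the ribosome assembly genes. Eef1a1, Eif4b, Pabpc1 and the elongation factor gene Eef2 are in both. Eef2 rose from 1085 ± 54.4 to 1814 ± 24.4 CPM (log2 fold change 0.74, SE 0.086). Fau, which encodes a ribosomal protein fused to a ubiquitin-like protein and so escapes the symbol rule, was at 109.9 ± 4.44 to 112 ± 17.3 CPM from Control to AKG and did not pass (edgeR adjusted p = 0.817), but was called higher with total counts (0.47). Rack1, a protein bound to the small subunit, was at 268 ± 3.48 to 300.5 ± 13.5 CPM and did not pass (edgeR adjusted p = 0.0789), but passed without AKG 3 (0.0233) and with total counts (log2 fold change 0.61).

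Among 15 tested regulators of TOP translation, 3 rose and 6 fell, with a median of -0.17, beside 25% and 25.2% of all tested genes. With total counts as the scaling 9 rose and 1 fell, and the median turned to 0.27. On that scaling 56.7% of all tested genes rose and 9.12% fell, with a median of 0.45. The 4E-binding protein genes Eif4ebp1, which rose from 51.3 ± 0.979 to 127 ± 7.51 CPM, and Eif4ebp2, which rose from 82.6 ± 4.76 to 116 ± 4.02 CPM, encode repressors of cap-dependent initiation. The cap-binding protein gene Eif4e fell from 78.9 ± 1.97 to 51.5 ± 3.17 CPM, and its log2 fold change was 0.28 in the test on log2(FPKM + 1). Larp1b, a relative of Larp1, fell from 42.3 ± 3.56 to 18.4 ± 3.16 CPM. Of 60 ribosome assembly genes 9 rose and 12 fell, with a median of -0.051, against the same shares of all tested genes. With total counts 38 rose and 4 fell, and the median turned to 0.39. Of all tested genes 56.7% then rose and 9.12% fell, with a median of 0.45. Nop56, a core protein of box C/D snoRNA particles, fell from 30.2 ± 1.79 to 14.8 ± 0.654 CPM. Nop10, of the box H/ACA particles, fell from 27.5 ± 1.09 to 14.1 ± 1.51 CPM, and Mdn1, a large ATPase of 60S maturation, from 46.5 ± 5.29 to 25.7 ± 2.41 CPM. Mdn1 did not pass in the tests on log2(FPKM + 1) (-0.27, adjusted p = 0.0519) and log2(FPKM + 0.1) (-0.39, adjusted p = 0.0565). The nucleolar chaperone gene Npm1 rose from 121 ± 7.82 to 188 ± 12.9 CPM.

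The mitochondrial ribosomal protein genes, which encode the separate ribosome of mitochondria, are given for comparison. Of 78 tested, 0 rose and 73 fell by edgeR's quasi-likelihood test, with a median of -0.72, beside 25% and 25.2% of all tested genes. With total counts as the scaling 3 rose and 41 fell, with a median of -0.28, beside 56.7% and 9.12% of all tested genes. Mrps34 fell from 69.5 ± 4.29 to 25.4 ± 1.44 CPM, Mrpl12 from 118 ± 4.57 to 48.2 ± 3.37 CPM, Mrpl51 from 119.6 ± 7.80 to 49.0 ± 2.78 CPM and Mrps14 from 30.5 ± 0.458 to 11.9 ± 0.473 CPM. For the 84 cytosolic members the counts were 5 rises and 15 falls. The difference between the sets of genes was not tested.

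**Figure D4:**
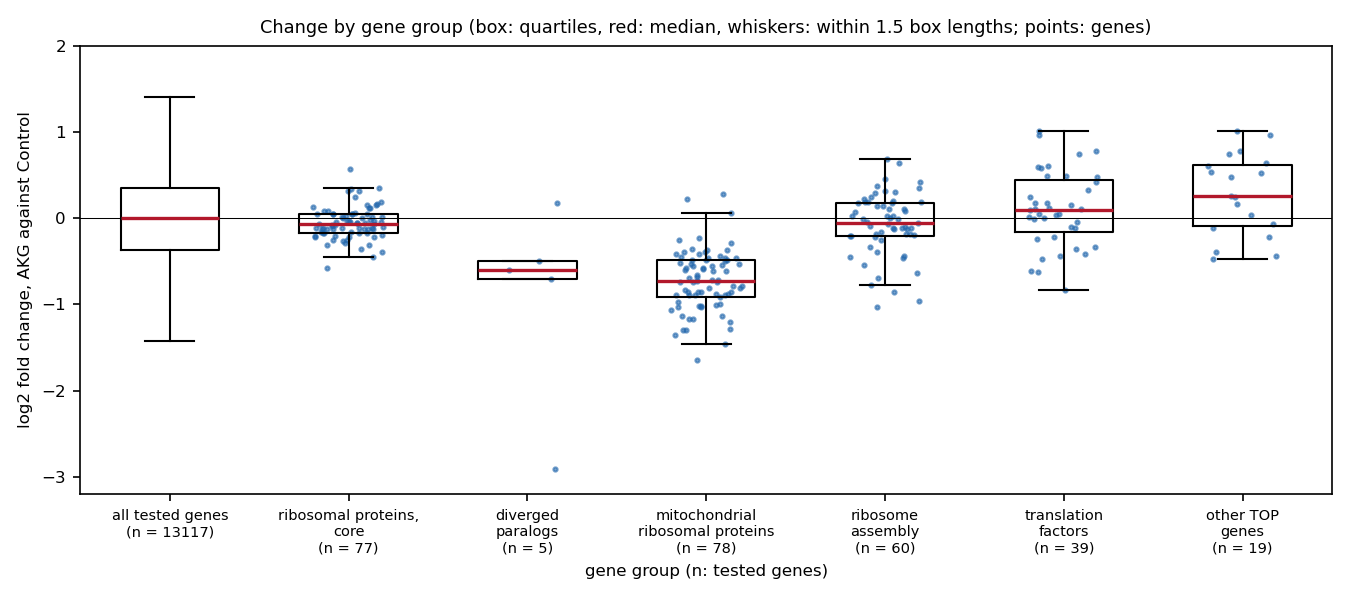
Log2 fold changes, AKG against Control, of all tested genes, core cytosolic ribosomal proteins, their paralogs, mitochondrial ribosomal proteins, ribosome assembly genes, translation factors and other TOP genes. Points are genes, boxes span the quartiles and red lines are medians. The mitochondrial list has a median of -0.72 and the core cytosolic list one of -0.067, which turns to 0.38 with total counts as the scaling.

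Transcript length moved with fold change across genes. The median effective length was 728 bases for the tested members and 2830 bases for all tested genes. Spearman's rho between fold change and length was 0.221 over the 84 members and 0.238 over all tested genes, as a description across genes, which are not independent replicates. Among genes of 500 to 1000 bases, the 52 members had a median log2 fold change of -0.061 and the 698 other genes one of -0.47. Of those other genes 7.74% rose and 57.7% fell. Below 500 bases the 13 members had -0.18 and the 42 other genes -0.93. Between 1000 and 2000 bases the 17 members had -0.042 and the 3053 others -0.14. The members lay above the other genes of like length in these bins. Only 2 members were longer, between 2000 and 4000 bases, and there the order was reversed, at -0.28 against 0.029 for the other genes.

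**Figure D5:**
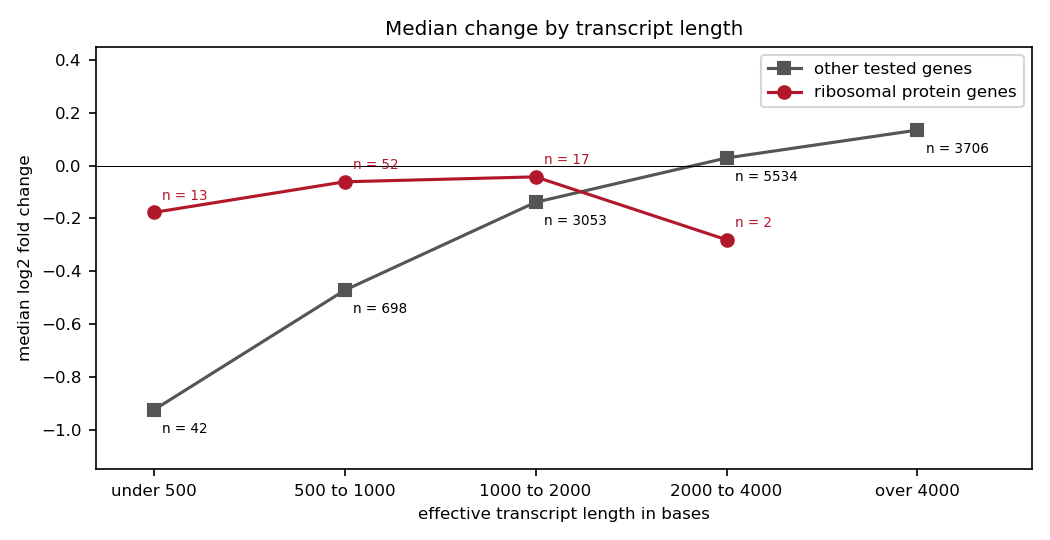
Median log2 fold change, AKG against Control, by effective transcript length (bases) for ribosomal protein members and for all other tested genes. The other genes rise from -0.93 below 500 bases to 0.14 above 4000. Members stay between -0.18 and -0.042 up to 2000 bases, with 13, 52 and 17 members in those bins. The next bin holds 2 members, at -0.28, below the other genes at 0.029.

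In the authors' deposited table, 13 members were higher and 5 lower at a false discovery rate of 0.05, against 16.3% and 10.4% of all genes with a symbol. The median log2 fold change in the authors' deposited table was 0.37 for the members and 0.45 for all genes tested here. For Rpl3l the authors' deposited table gave -2.42 and for Rpl3 0.75. For the 86 members above 0 FPKM in both groups, the log2 fold change in the authors' deposited table equalled the log2 ratio of group mean FPKM within 0.01. It is thus on another scaling than the TMM-based values here, and total counts gave -2.46 for Rpl3l and 0.76 for Rpl3.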

How the data were processed

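The authors deposited 1 table with an estimated count, an FPKM value, and their own log2 fold change and p-value per gene. Per the submitters' processing notes HISAT2 2.1.0, RSEM 1.2.19 and DESeq2 1.20.0 were used. Their roles and settings, the genome build, the annotation and the use of strand are not given in the sources used here. Deposited counts were whole numbers and were used as they stood. The 30 rows without a symbol (3.95e-05% of counts) were left out.

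The 6 libraries were tested with edgeR 4.0.16 in R 4.3.3 (filterByExpr with a minimum count of 10 and total of 15, TMM scaling, robust quasi-likelihood test, Benjamini-Hochberg adjustment over all tested genes, threshold 0.05). The test was checked on simulated data in which few genes changed, equally in both directions. That check does not cover the choice between TMM and total counts. Fold changes are AKG against Control, and low genes can be shrunk by edgeR's prior count. Libraries of a group differed by more than sampling noise. CPM are TMM-scaled. Paralogs were compared on FPKM, and ratios of counts by exact permutation. Sequences were read from RefSeq, and transcripts were aligned (Biopython 1.88) using the longest protein-coding transcript in GENCODE M21. Of 10 listed paralog pairs 7 were measured.

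The members and all lists were chosen with earlier results of these data known. Members named were both genes of each paralog pair, the 5 with the highest mean FPKM, up to 6 largest rises and falls among those past the threshold with groups apart (5 rises qualified), the 4 smallest p-values in each direction, and 13 named for their roles; some results are not reported here. Up to 4 genes with the smallest p-value were named per companion list, with Eef2, Fau and Rack1 added after values were seen, as were the cardiomyocyte markers Actc1, Ryr2 and Pln. Alternatives were other scalings, filters and tools (DESeq2 1.42.0, limma 3.58.1 on counts and on log2 FPKM), a replicate block and leaving out each library. AKG 2 as the lone treated library was added after seeing the data.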

Additional observations from a re-analysis of the deposited data

How the results depend on the processing

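Of the 20 calls among the members, 20 kept call and direction with RLE or upper quartile scaling and 19 with DESeq2 or limma-voom, but 7 with total counts as the scaling, where 9 turned sign. With total counts 7431 genes rose and 1196 fell over the whole table, 65 and 2 among the members (median 0.37), 64 and 0 among the core genes, and 3 and 41 among the mitochondrial ribosomal proteins. Limma on log2(FPKM + 1) and on log2(FPKM + 0.1), which are not rescaled between libraries, gave 6732 and 6725 of all genes higher, 1068 and 1067 lower, 65 members higher and 2 lower (median 0.36 in both), 64 and 0 core genes, and 4 and 41 mitochondrial ribosomal proteins. Signs turned, in the order total counts, FPKM + 1, FPKM + 0.1, for Rpl39 (0.39, 0.38, 0.39), Rpl36a (0.39, 0.39, 0.39), Rpl23a (0.16, 0.16, 0.16), Rpl11 (0.32, 0.33, 0.33), Rplp1 (0.22, 0.22, 0.22), Rplp2 (0.088, 0.024, 0.024), Rpsa (0.18, 0.096, 0.096), Rpl38 (0.31, 0.30, 0.30), Rps25 (0.19, 0.19, 0.19), Rps19 (0.42, 0.44, 0.45) and Rpl24 (0.31, 0.31, 0.31). In the FPKM tests alone they turned for Rpl7l1 (0.023, 0.024) and Eif4e (0.28, 0.29), and with upper quartile scaling for Rps6 (-0.012). The cause was not tested.

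Leaving out each library gave 2750 to 3296 of all tested genes higher and 2846 to 3243 lower. It gave 4 to 12 members higher and 7 to 17 lower, 4 to 11 core genes higher and 3 to 13 lower, and 0 to 2 mitochondrial ribosomal proteins higher. The sign turned within that range for Fau (-0.040 to 0.16), Rpl36a (-0.095 to 0.026), Rpl38 (-0.21 to 0.032), Rpl39 (-0.13 to 0.038), Rpl7 (-0.011 to 0.12), Rps19 (-0.087 to 0.12) and Rps6 (-0.013 to 0.064). With AKG 2 as the lone treated library, assumed to vary like the Controls, 10 members were higher and 6 lower, 9 and 2 of the core genes, and the sign turned for Rpl39 (0.12), Rpl36a (0.054), Rpl38 (0.027) and Rps19 (0.11). RLE scaling, a CPM minimum, no filter and the replicate block each gave 1 mitochondrial ribosomal protein higher.

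The replicate block gave 5 members higher and 16 lower. Same-numbered libraries correlated at 0.181, -0.0568 and 0.0604 in their deviations from group means, and not every library correlated best with its own number. With 3 libraries a group these values cannot show whether the numbers mark a pairing, and the labels do not say. At 3 libraries a group no member with a log2 fold change nearer to 0 than -0.22 or 0.24 passed, and genes with few counts, such as Rpl39l, could not be tested.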

Other observations

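Rpl10, an X-linked large-subunit protein, had an uneven Control group. It was at 60.4, 101 and 57.3 CPM in Control 1, 2 and 3, and at 114, 102 and 110 CPM in AKG 1, 2 and 3. All AKG libraries were above Control, but Control 2 lay next to them. The log2 fold change of Rpl10 was 0.57 (SE 0.24) (adjusted p = 0.0976, edgeR's quasi-likelihood test), and 0.88 (adjusted p = 2.7e-05) without Control 2. With all 6 libraries the adjusted p was 0.0131 in limma-voom, 0.019 without robust dispersion, 0.0281 with total counts as the scaling (log2 fold change 1.0) and 0.00109 in the test on log2(FPKM + 1) (1.06). Summed over Ddx3y, Uty, Kdm5d and Eif2s3y, the Y-linked level was 168, 0.311 and 176 CPM in Control and 89.2, 50.4 and 39.0 CPM in AKG, so that Control 2 alone was near 0. All AKG libraries lay above Control 2 and below Control 1 and Control 3. The part of the sex of the mice in the values of Rpl10, or of other X-linked members such as Rps4x, was not tested.

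Rows marked as ribosomal protein pseudogenes, which are not members, were 7 in number and held 1.14 to 1.43% as many counts as the members in the libraries. Rps19bp1, a nucleolar protein that binds Rps19 and matches the name pattern, is no ribosomal protein.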
